A study of Mus musculus with 5 samples.

Results

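Carboxylesterases are a family of liver esterases, and 10 of their genes in the mouse are described here, Ces1b, Ces1c, Ces1d, Ces1e, Ces1f, Ces1g, Ces2a, Ces2e, Ces3a and Ces3b. They were taken by gene symbol from a set list of carboxylesterase 1, 2 and 3 genes, with no threshold on their values, and make up 10 of the 22287 genes measured. The list does not hold the whole family, and Ces2c, Ces2g and the remaining carboxylesterase genes are given after the members. RNA was sequenced from liver tumours of C57BL/6 mice in 5 libraries. The KO group held 3 tumours of genotype lnc-CTHCC-/-, which lack a long non-coding RNA, and the WT group held 2 wild-type tumours. Mice of both genotypes received DEN, a liver carcinogen, and CCl4, a solvent that injures hepatocytes, over 5 months, so no untreated or tumour-free liver serves as a baseline. The labels give no age, sex or allele design, and leave unsaid whether each tumour is from a different mouse. A p-value here therefore describes the spread between these libraries, which may be technical. The level of lnc-CTHCC itself was not analysed here, and each library is taken by its label.

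Carboxylesterases are serine hydrolases that cleave esters, amides and thioesters. In hepatocytes most of them sit in the lumen of the endoplasmic reticulum (ER), where they clear ester drugs and take part in the turnover of triglyceride and cholesteryl ester. Mice carry many more carboxylesterase genes than humans do, in tandem arrays, and some of the mouse enzymes are secreted into plasma.

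All 10 genes lie on chromosome 8 of the GRCm38 (mm10) build in the GENCODE vM21 annotation. The 6 Ces1 members stand side by side on the minus strand within 280.6 kb, from 93056728 to 93337308. The Ces2 and Ces3 members stand on the plus strand within 359.9 kb, from 104734003 to 105093929, and 11.4 Mb separate the clusters. Ces1d and Ces1e are the closest of the Ces1 neighbours, with 3379 bases between them. Their coding sequences run from 1665 bases in Ces1c to 1716 bases in Ces3a and Ces3b, over 12 to 14 exons.

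The last coding bases are shown for all members because the end of the protein bears on where an esterase is kept. Proteins of the ER lumen are often held there by an ending of the type histidine, any residue, glutamate, leucine. Each line below gives the last 30 coding bases from GENCODE vM21, 5′ to 3′ on the coding strand, with the last 4 codons before the stop in capitals.
Ces1b, chr8:93056887-93056916, minus strand: gaccctactgagcacAGAGAACACAAAtga
Ces1c, chr8:93099165-93099194, minus strand: gaccctactgaacacACAGAACACAAAtga
Ces1d, chr8:93166255-93166284, minus strand: ccatcccacagggaaCATGTTGAGCTCtga
Ces1e, chr8:93201404-93201433, minus strand: caactgccgacagaaCACACTGAGCTGtga
Ces1f, chr8:93256429-93256458, minus strand: caaccccagccatacCACAATGAGCTGtga
Ces1g, chr8:93302905-93302934, minus strand: tcatcccatagggaaCATGTTGAACTGtga
Ces2a, chr8:104741387-104741416, plus strand: ggttctcaggacaagCATGCAGAGCTGtag
Ces2e, chr8:104933685-104933714, plus strand: gggtctcaggagaggCACAAAGAGTTGtag
Ces3a, chr8:105058074-105058103, plus strand: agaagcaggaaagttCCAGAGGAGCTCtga
Ces3b, chr8:105093233-105093262, plus strand: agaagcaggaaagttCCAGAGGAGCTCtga
Ces1d, Ces1e, Ces1f, Ces1g, Ces2a and Ces2e, 6 of the 10 members, carried codons for that ending. Ces3a and Ces3b, which are identical over these 30 bases, encode glutamate and leucine as the last residues but have proline in place of the histidine. Ces1b and Ces1c have neither feature, and Ces1c is known as the esterase of mouse plasma.

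The coding sequences show how near the members stand to each other, which bears on how surely a short read can be given to 1 gene. Identity was 95.3% between Ces3a and Ces3b, 90.9% between Ces1b and Ces1c and 83.3% between Ces2a and Ces2e. Over the 15 pairs of Ces1 members it ran from 73.1% to 90.9%, and over the 28 pairs from different subfamilies from 61.3% to 63.7%. Of the 50-base windows of the transcript, 30.9% in Ces3a and 26.1% in Ces3b occurred unchanged in another gene's transcript, mostly in each other. The share was 17.0% in Ces1c and 11.6% in Ces1b, again mostly in each other. In Ces2a it was 22.2%, mostly with Gm7208, a transcribed pseudogene at chr8:104675536-104682211 that is not among the genes of the table used. In the other members it was between 1.28% in Ces1d and 3.36% in Ces2e. With 100-base windows the share was 10.7% in Ces2a, 9.09% in Ces3a, 7.68% in Ces3b, 1.39% in Ces1c and 1.29% in Ces1b. It was 0.0% in the other members. The levels of Ces3a, Ces3b, Ces1b, Ces1c and Ces2a are therefore less certain than those of the other members, since the sources used here do not state how shared reads were assigned.

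**Figure D1:**
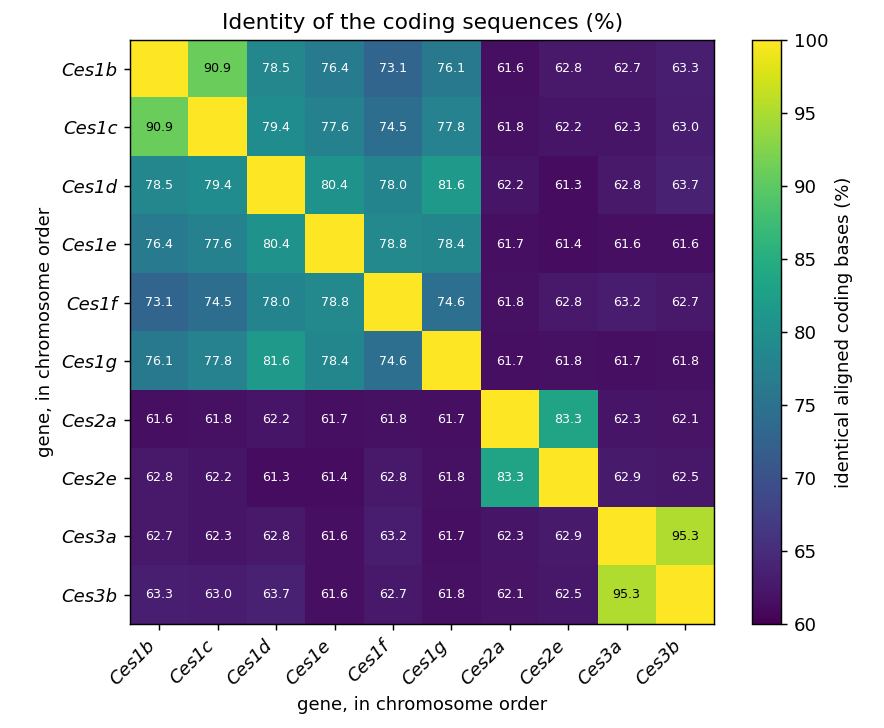
Identity of the coding sequences of each pair of carboxylesterase members, in percent of aligned bases, with genes in chromosome order on both axes. Ces3a with Ces3b (95.3%) and Ces1b with Ces1c (90.9%) are the closest pairs, and pairs from different subfamilies lie between 61.3% and 63.7%.

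Levels are in FPKM, which divides a gene's fragments by its length and by the size of the library, so they are per length and may be set beside each other between genes. Ces2e and Ces1c stood far above the other members. Ces2e averaged 414 ± 20.1 FPKM in KO tumours and 412 ± 50.2 FPKM in WT tumours (SD, n = 3 and 2), and Ces1c 367 ± 90.4 FPKM in KO tumours and 290 ± 44.7 FPKM in WT tumours. By mean level over the 5 libraries Ces2e ranked 111 and Ces1c 140 among the 10132 genes tested, which are those with a mean of at least 1 FPKM. All 10 members passed that filter. Ces3a, Ces1d, Ces1f and Ces2a followed at group means between 24.6 and 72.8 FPKM, and their order changed from library to library. Ces1g ranked 7 and Ces1b ranked 10 of the members in each library, while Ces3b and Ces1e exchanged the places between them. Ces2e was above Ces1c in every library but KO 3, so those neighbours at the top were not separated beyond the spread of the libraries.

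**Figure D2:**
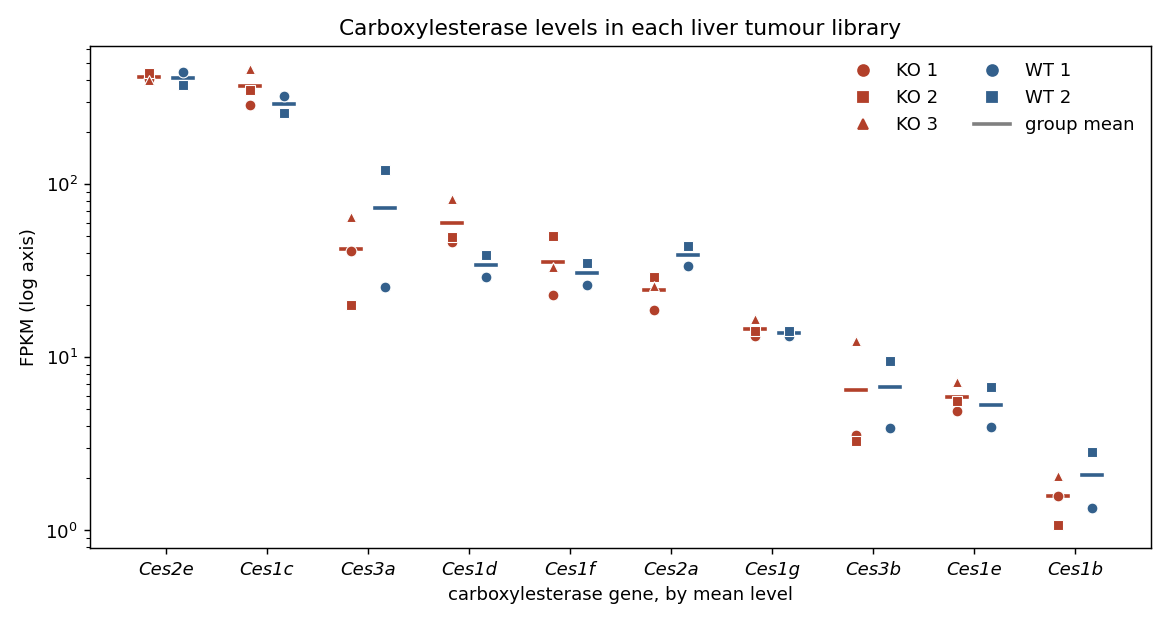
FPKM of each carboxylesterase gene in each tumour library on a log axis, with genes ordered by mean level, KO libraries in red left of WT libraries in blue, and bars for group means. Ces2e and Ces1c lie at 258 FPKM or more in every library, only Ces1d (KO higher) and Ces2a (KO lower) have groups that do not overlap, and Ces3a spreads from 19.98 FPKM in KO 2 to 120 FPKM in WT 2.

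In sum the 10 genes gave 844, 961 and 1109 FPKM in KO tumours 1, 2 and 3, against 906 and 906 FPKM in WT tumours 1 and 2. The KO values lay on both sides of the WT values. As a share of each library's summed FPKM this was 0.160%, 0.179% and 0.209% in KO tumours and 0.164% and 0.171% in WT tumours. The log2 ratio of the mean sums, KO over WT, was 0.10, and without KO 3 it was -0.01. The Ces1 members summed to 374, 471 and 606 FPKM in KO tumours and 396 and 356 FPKM in WT tumours. The Ces3 members summed to 44.9, 23.3 and 77.2 FPKM in KO tumours and 29.3 and 130 FPKM in WT tumours. Neither subfamily separated the groups. Ces2e made up 48.1%, 45.5% and 36.1% of the 10-gene sum in KO tumours and 49.4% and 41.5% in WT tumours. In tissue RNA, fewer cells of a type and less RNA per cell cannot be told apart.

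**Figure D3:**
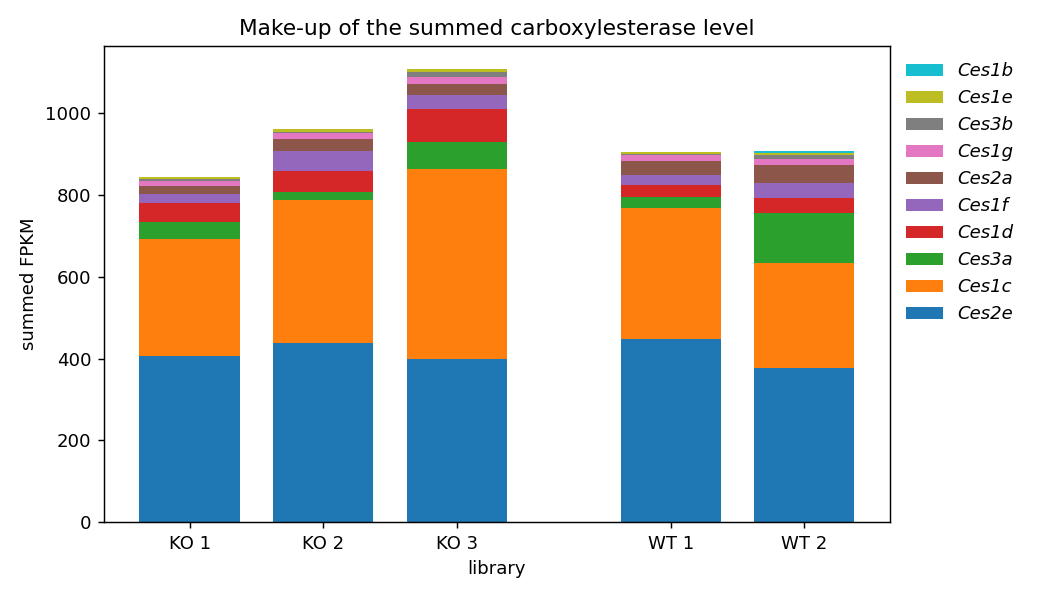
Summed FPKM of the 10 carboxylesterase genes in each tumour library, KO bars left of WT bars, stacked by gene with the most abundant at the bottom. Ces2e and Ces1c fill most of every bar, KO 3 has the tallest bar at 1109 FPKM and KO 1 the lowest at 844 FPKM, and Ces3a is widest in WT 2.

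Setting KO against WT addresses whether loss of lnc-CTHCC goes with a different carboxylesterase transcript level in the tumour, and no member passed the test. With limma on log2(FPKM + 1) and Benjamini-Hochberg adjustment over all 10132 genes, 0 of 10 members had an adjusted p under 0.05, and each had an adjusted p of 0.999. Of all genes tested, 0.00987% passed, which was 1 gene, Onecut1. At an unadjusted p under 0.05 there were 2 members, Ces1d and Ces2a, where 3.23% of all genes tested were at that level. All KO values lay above both WT values in 1 member, against 9.78% of all genes tested, and below both in 1 member, against 5.29%. For 3 tumours against 2, the smallest two-sided p of an exact permutation test is 0.1. Means were higher in KO tumours for 6 members and lower for 4, with median-ratio rescaling 5 and 5. The members' median log2 difference was 0.05, which was also the median over all genes tested. The split and the medians depended on which WT tumour was kept. Without WT 2, 8 members were higher and 2 lower, with a median of 0.26 against 0.16 over all genes. Without WT 1, 4 were higher and 6 lower, with a median of -0.12 against -0.07 over all genes. With 1 library left out, the sign of the difference turned in Ces1b, Ces1e, Ces1f, Ces1g, Ces2e, Ces3a and Ces3b, and was kept in Ces1c, Ces1d and Ces2a. In the authors' deposited table, 0.162% of 22287 genes had a false discovery rate under 0.05, and 0 of the 10 members did.

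Ces1d (ENSMUSG00000056973, chr8:93166068-93197838), known as triacylglycerol hydrolase, mobilises stored triglyceride for the assembly of very-low-density lipoprotein (VLDL). It had 46.3, 49.2 and 82.5 FPKM in KO tumours 1, 2 and 3, against 29.2 and 38.8 FPKM in WT tumours 1 and 2. Each KO tumour lay above both WT tumours, with KO 3 well above the other KO tumours. The log2 difference was 0.75 (SE 0.264, 95% interval 0.15 to 1.35, limma unadjusted p = 0.0200, adjusted p = 0.999). The authors' deposited table gives Ces1d a log2 fold change of 0.80 with a p of 0.0148 and a false discovery rate of 0.883. Over the 15 alternatives tried the difference ran from 0.49 to 0.95, lowest without KO 3, and the smallest adjusted p was 0.423. The unadjusted limma p was 0.0550 without KO 3 and 0.123 without WT 1.

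Ces2a (ENSMUSG00000055730, chr8:104734003-104741634) hydrolyses diglyceride and triglyceride in mouse liver as well as ester drugs. It had 18.8, 29.1 and 25.9 FPKM in KO tumours, against 33.5 and 44.1 FPKM in WT tumours. Each KO tumour lay below both WT tumours, and KO 1 was lowest. The log2 difference was -0.64 (SE 0.224, 95% interval -1.15 to -0.13, limma unadjusted p = 0.0189, adjusted p = 0.999). The authors' deposited table gives Ces2a a log2 fold change of -0.66 with a p of 0.0303 and a false discovery rate of 0.999862. Over the alternatives the difference ran from -0.84 to -0.45, with a smallest adjusted p of 0.320. The unadjusted limma p was 0.0771 without KO 1 and 0.115 without WT 2. Chosen after the values were seen, the ratio of Ces1d to Ces2a in the same library was 2.46, 1.69 and 3.18 in KO tumours and 0.872 and 0.880 in WT tumours. Because the groups separate in opposite directions in these genes, their ratio had to separate too, so it adds no support for either difference.

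**Figure D4:**
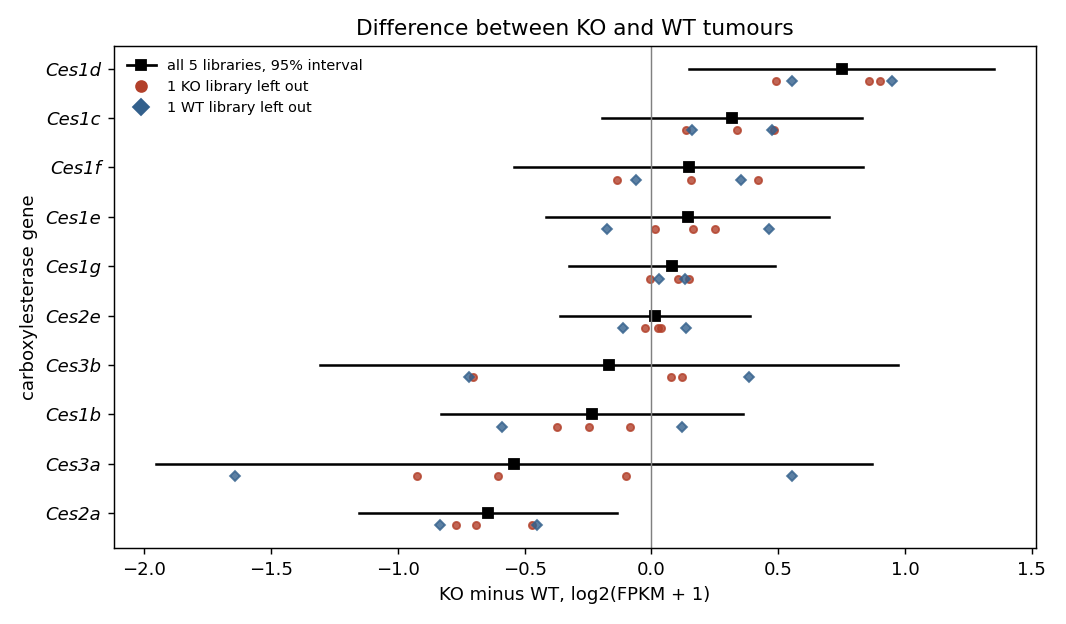
Difference between KO and WT tumours in log2(FPKM + 1) for each carboxylesterase, with squares and bars for the limma estimate and its 95% interval from all 5 libraries, red circles with 1 KO library left out and blue diamonds with 1 WT library left out. The intervals of Ces1d (0.15 to 1.35) and Ces2a (-1.15 to -0.13) exclude 0, and Ces3a moves from -1.64 without WT 1 to 0.56 without WT 2.

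The promoters of Ces2a and Ces2e are shown because these relatives, 83.3% identical in coding sequence, differed in how their groups separated. Both are from RefSeq (GRCm38.p6), 250 bases before to 50 after the start, 5′ to 3′ on the coding strand, with motif matches in capitals. The motifs, searched on both strands, were AGGTCA, a site element of nuclear receptors, and TTGCNNAA, a site of the C/EBP type.
Ces2a, chr8:104733753-104734052, plus strand: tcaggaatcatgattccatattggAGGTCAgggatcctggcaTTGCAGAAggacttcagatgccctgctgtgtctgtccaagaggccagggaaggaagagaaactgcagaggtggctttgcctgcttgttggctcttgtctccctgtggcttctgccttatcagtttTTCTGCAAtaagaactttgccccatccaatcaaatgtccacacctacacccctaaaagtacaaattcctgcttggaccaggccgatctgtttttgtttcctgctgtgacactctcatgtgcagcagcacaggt
Ces2e, chr8:104926010-104926309, plus strand: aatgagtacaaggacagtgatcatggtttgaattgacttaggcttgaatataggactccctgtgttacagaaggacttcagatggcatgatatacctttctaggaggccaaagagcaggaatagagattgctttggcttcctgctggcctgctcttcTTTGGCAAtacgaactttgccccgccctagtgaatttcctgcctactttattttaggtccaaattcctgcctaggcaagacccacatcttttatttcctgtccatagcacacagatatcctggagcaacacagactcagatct
Ces2a matched AGGTCA at 1 place and TTGCNNAA at 2 places, and Ces2e matched TTGCNNAA at 1 place. Of 32851 promoters in the table, 16.3% held AGGTCA and 10.8% held TTGCNNAA. The table held 7 of the 10 members, not Ces1d, Ces1f and Ces3a, and 4 of those 7 held TTGCNNAA. GTTAAT (7.1% of promoters) was in 1 member and TATAAA (13.6%) in 2. ATTGAT or ATCGAT, the core of ONECUT sites (8.4%), was in 0 of the 7. No motif overlapped another in the sequences shown.

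Among the other Ces1 members, Ces1c (ENSMUSG00000057400, chr8:93099015-93131283) had 286, 351 and 464 FPKM in KO tumours, against 322 and 258 FPKM in WT tumours. KO 1 lay between the WT tumours, and KO 2 and KO 3 above both. The log2 difference was 0.32 (SE 0.226, 95% interval -0.20 to 0.83). Ces1f (ENSMUSG00000031725, chr8:93256236-93279747), also a triglyceride hydrolase, had 22.8, 50.5 and 33.3 FPKM in KO tumours, against 26.2 and 35.2 FPKM in WT tumours, which lay inside the KO range. Its log2 difference was 0.15 (95% interval -0.54 to 0.83). Ces1g (ENSMUSG00000057074, chr8:93302369-93337308), known in mouse liver for its part in lipid balance, was even across libraries, at 13.3, 14.1 and 16.7 FPKM in KO tumours and 13.2 and 14.3 FPKM in WT tumours. Its log2 difference was 0.08 (95% interval -0.32 to 0.49).

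Ces1e (ENSMUSG00000061959, chr8:93201218-93229619) is egasyn, which holds beta-glucuronidase in the ER. It had 4.89, 5.63 and 7.17 FPKM in KO tumours, against 3.96 and 6.72 FPKM in WT tumours, and the groups overlapped. Its log2 difference was 0.14 (95% interval -0.42 to 0.70). Gusb, which encodes the beta-glucuronidase and was chosen after its values were seen, had 14.99, 14.7 and 16.5 FPKM in KO tumours, against 15.3 and 24.9 FPKM in WT tumours. Ces1b (ENSMUSG00000078964, chr8:93056728-93080017) had the lowest levels, at 1.59, 1.07 and 2.07 FPKM in KO tumours and 1.34 and 2.83 FPKM in WT tumours, with a log2 difference of -0.23 (95% interval -0.83 to 0.36).

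Ces2e (ENSMUSG00000031886, chr8:104926260-104934672), an esterase of liver and gut and the most abundant member, had 406, 437 and 400 FPKM in KO tumours, against 447 and 376 FPKM in WT tumours. The KO values lay inside the WT range. Its log2 difference was 0.01 (SE 0.164, 95% interval -0.36 to 0.39), and its highest and lowest libraries were 1.19-fold apart. The 6 enterocyte markers, listed because gut also makes this enzyme, summed to 45.4 to 61.9 FPKM in KO tumours and 54.4 to 58.8 FPKM in WT tumours. Fabp2, a fatty acid binding protein of enterocytes, had 30.4, 37.5 and 45.7 FPKM in KO tumours, against 35.3 and 23.2 FPKM in WT tumours, and the groups overlapped. Vil1, a protein of the microvillus, had 0.30, 0.04 and 0.11 FPKM in KO tumours, against 2.20 and 4.59 FPKM in WT tumours, and reached the filter on low values only through the WT tumours. Cdh17, also of this list, had 14.7, 12.7 and 16.0 FPKM in KO tumours, each below the 16.9 and 31.1 FPKM in WT tumours. Sis, Lct and Alpi, the remaining markers, were at 0.02 FPKM or less in every library.

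Ces3a (ENSMUSG00000069922, chr8:105048601-105058413) and Ces3b (ENSMUSG00000062181, chr8:105083753-105093929), liver esterases that share much of their sequence, varied most within groups. Ces3a had 41.3, 19.98 and 64.7 FPKM in KO tumours, against 25.4 and 120 FPKM in WT tumours. The WT tumours differed 4.73-fold, a spread met by 0.77% of all genes tested, and the KO tumours 3.24-fold, met by 1.56%. Its log2 difference was -0.54 (95% interval -1.96 to 0.87), and it was 0.56 without WT 2. Ces3b had 3.57, 3.30 and 12.5 FPKM in KO tumours, against 3.92 and 9.57 FPKM in WT tumours, a log2 difference of -0.17 (95% interval -1.31 to 0.97). KO 3 and WT 2 were the highest libraries for both genes and KO 2 the lowest. How far shared reads tie the values of both genes was not tested.

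Of 10 pericentral hepatocyte markers 6 were tested, with 5 higher and 1 lower mean in KO tumours and a median log2 difference of 0.09. The direction depended on the WT tumour kept, with 6 higher and 0 lower (median 0.50) without WT 2 and 1 higher and 5 lower (median -0.41) without WT 1. Cyp2e1, one of them, had 159, 58.3 and 321 FPKM in KO tumours, against 84.4 and 192 FPKM in WT tumours, and was highest in KO 3 and WT 2 and lowest in KO 2. Rgn and Cyp1a2, pericentral markers named after their values were seen, differed in this. Rgn had 42.3, 13.5 and 80.4 FPKM in KO tumours and 21.3 and 53.8 FPKM in WT tumours, in the same order as Cyp2e1. Cyp1a2 had 25.5, 43.9 and 22.7 FPKM in KO tumours and 22.8 and 36.3 FPKM in WT tumours, and was highest in KO 2 and lowest in KO 3. Gulo was lowest in WT 2, at 53.3 FPKM. The 6 cholangiocyte markers summed to 334, 154 and 348 FPKM in KO tumours and 150 and 423 FPKM in WT tumours, and Spp1, which encodes osteopontin and is made by other cells too, gave 327, 149 and 344 FPKM of this in KO tumours and 146 and 418 FPKM in WT tumours. Sox9, another of these markers, was highest in WT 1, at 2.56 FPKM, and lowest in WT 2, at 1.09 FPKM. The part of either cell type in the spread of Ces3a was not tested. Among hepatocyte markers 9 of the 10 listed were measured, summing to 125306 to 127310 FPKM in KO tumours and 110165 to 144138 FPKM in WT tumours. Alb gave most of this, with 81810.3, 78319.5 and 83027.5 FPKM in KO tumours and 94257.9 and 74739.3 FPKM in WT tumours. Means were higher in KO tumours for 5 of the 9 and lower for 4. In 1 of the 9, Ttr, each KO tumour lay below both WT tumours, against 5.29% of all genes tested. Adipocyte markers summed to 13.7 to 18.6 FPKM in KO tumours and 14.4 to 21.3 FPKM in WT tumours, with 4 of 6 at 0 in every library.

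All 10 periportal markers had lower means in KO tumours, where 61.4% of all genes tested had higher means. In 4 of the periportal markers each KO tumour lay below both WT tumours, against 5.29% of all genes tested. Past the threshold were 0, and 4 were at an unadjusted limma p under 0.05, against 3.23% of all genes tested. The median log2 difference of these markers was -0.71. Without WT 2 the median was -0.28, with 3 higher and 7 lower, and without WT 1 it was -0.98, with 0 higher and 10 lower. Hal and Sds, enzymes of amino acid breakdown, had log2 differences of -1.38 and -1.41. The 6 B and plasma cell markers summed to 37.7 to 132 FPKM in KO tumours and 173 to 491 FPKM in WT tumours, nearly all of it from Igha and Igkc, which encode antibody chains, and Jchain, which encodes the chain that joins them. Mzb1, also of this list, had 0.89, 0.74 and 0.31 FPKM in KO tumours, each below the 1.34 and 2.68 FPKM in WT tumours. It reached the filter on low values only through the WT tumours. Cd79a, a marker of B cells that did not reach the filter, had 1.21, 0.75 and 0.41 FPKM in KO tumours and 1.32 and 0.59 FPKM in WT tumours, and overlapped. Macrophage markers summed to 32.3 to 87.9 FPKM in KO tumours and 43.1 to 46.6 FPKM in WT tumours, and endothelial markers to 49.6 to 79.5 FPKM in KO tumours and 46.8 to 52.3 FPKM in WT tumours. Means were higher in KO tumours for 5 of 5 macrophage and 6 of 6 endothelial markers tested, against 61.4% of all genes tested. Of these, Marco had 3.01, 1.28 and 3.58 FPKM in KO tumours and 0.96 and 0.57 FPKM in WT tumours. It reached the filter only through the KO tumours. The median log2 differences of the macrophage and endothelial markers were 0.44 and 0.16, with 0 past the threshold. Without WT 1 they were 3 higher and 2 lower, and 5 higher and 1 lower, with medians of 0.72 and 0.21, against -0.07 over all genes. Without WT 2 the medians were 0.44 and 0.13, against 0.16 over all genes. Stellate cell markers summed to 60.8 to 92.5 FPKM in KO tumours and 55.4 to 68.7 FPKM in WT tumours. The part of these cells in the values of Ces2a and Ces1d was not tested.

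Of the other carboxylesterase genes, 9 were in the table and 2 were tested. Ces2c, a triglyceride hydrolase, had 48.3, 70.9 and 47.4 FPKM in KO tumours and 77.3 and 43.7 FPKM in WT tumours. Ces2g had 42.5, 44.6 and 48.2 FPKM in KO tumours and 44.2 and 60.4 FPKM in WT tumours. In both genes the groups overlapped, with log2 differences of -0.09 and -0.19. Ces2b and Ces4a were at 0.78 FPKM or less, Ces1a, Ces1h, Ces2f and Ces2h at 0.11 FPKM or less, and Ces5a was listed at 0 in every library.

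Lists of genes that work beside the carboxylesterases held 0 genes past the limma threshold. Of 16 triglyceride hydrolysis and lipid droplet genes tested, 2 were at an unadjusted limma p under 0.05, against 3.23% of all genes tested. Means were higher in KO tumours for 10 of the 16 and lower for 6, with a median log2 difference of 0.14 against 0.05 over all genes. Without WT 1 it was 8 higher and 8 lower with a median of -0.000738, against -0.07 over all genes, and without WT 2 the median was 0.14, against 0.16 over all genes. Hilpda, which inhibits the triglyceride lipase of hepatocytes, had 7.05, 15.9 and 7.98 FPKM in KO tumours and 5.41 and 4.8 FPKM in WT tumours. Abhd5, which activates that lipase, had 49.1, 54.1 and 50.5 FPKM in KO tumours and 43.8 and 31.4 FPKM in WT tumours. In both genes, 2 of the 16 tested, each KO tumour lay above both WT tumours, against 9.78% of all genes tested. In 1 gene of the list, Pnpla2, each KO tumour lay below both WT tumours, against 5.29% of all genes tested. Pnpla2 had 35.43, 33.15 and 29.86 FPKM in KO tumours and 36.47 and 36.95 FPKM in WT tumours. Of 13 genes of triglyceride synthesis and VLDL assembly, 3 had higher means in KO tumours and 10 lower (0 at an unadjusted p under 0.05), with a median of -0.21. Without WT 2 this turned to 7 higher and 6 lower, with a median of 0.05, against 0.16 over all genes. Without WT 1 it was 3 higher and 10 lower, with a median of -0.40, against -0.07 over all genes. Dgat2, which makes triglyceride, had 126, 148 and 130 FPKM in KO tumours and 138 and 253 FPKM in WT tumours, a log2 difference of -0.47. Fasn, the fatty acid synthase, had 95.1, 171 and 80.5 FPKM in KO tumours and 106 and 286 FPKM in WT tumours, a log2 difference of -0.67. In both genes the groups overlapped and WT 2 was the highest library.

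Of 10 genes of cholesteryl ester and bile acid output, 4 had higher and 6 lower means in KO tumours, with a median log2 difference of -0.11 and 0 at an unadjusted p under 0.05. Without WT 2 they were 5 and 5, with a median of -0.03, and without WT 1 they were 2 higher and 8 lower, with a median of -0.20. Of 12 nuclear receptors and related factors, 8 had higher and 4 lower means, with a median of 0.16. At an unadjusted limma p under 0.05 there was 1, Pparg, against 3.23% of all genes tested. Without WT 1 the receptors were 5 higher and 7 lower, with a median of -0.06. Pparg had 3.09, 4.03 and 3.45 FPKM in KO tumours, against 2.55 and 1.71 FPKM in WT tumours. Of 11 genes of ER retention and folding, 9 had higher and 2 lower means, with a median of 0.13 and 0 at an unadjusted p under 0.05, and medians of 0.05 without WT 2 and 0.08 without WT 1. Other drug hydrolases gave 5 higher and 6 lower of 11 tested, with a median of -0.01, or 0.01 with rescaling to a common sum. Without WT 2 they were 10 higher and 1 lower, with a median of 0.27, and without WT 1 they were 1 higher and 10 lower, with a median of -0.15.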

How the data were processed

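RNA was measured by sequencing in 3 KO and 2 WT liver tumours. Trizol was used to extract total RNA, per the labels' protocols. Tools listed in the submitters' processing notes, with no role or order, are HISAT2, StringTie, bcl2fastq 2.0, limma and DESeq2, with the build mm10. The deposited table, made by the authors, holds FPKM per library, per the file headers, rounded to 2 decimals, with the authors' log2 fold change, p-value and false discovery rate. The sources used here do not give counts, depth, strand setting or annotation, so the precision from depth is unknown. Summed FPKM ran from 526229 to 552619 per library.

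Here log2(FPKM + 1) was fitted with limma 3.58.1 (R 4.3.3) for the 10132 genes averaging 1 FPKM or more, using trended empirical Bayes, two-sided tests, Benjamini-Hochberg over those genes, threshold 0.05, 3 residual degrees of freedom. The fit was tested on simulated data with normal noise at the fitted spread and with low levels raised. Those data lack low genes and uneven libraries, so they do not show what the fit can detect there. A fold change on this scale understates change in low genes. Of the 22287 table identifiers, 22253 matched GENCODE vM21 (GRCm38, the same build as mm10). Coding sequences were aligned globally with Biopython 1.88, and identity is over aligned columns without gaps. Promoters were matched by symbol.

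The 10 members and all lists were chosen with earlier results of these data known. Named genes are all members, the other carboxylesterases, and up to 3 genes per list by smallest unadjusted p. Any other gene was named after its values were seen, such as Spp1, Jchain and Cd79a. Alternatives were pseudocounts of 0.1 and 5, no filter, a mean of at least 5 FPKM, 3 other scalings, no trend, robust fitting, a replicate block and leaving out each library. Protein sequences were not analysed here.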

Additional observations from a re-analysis of the deposited data

How the results depend on the processing

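Across all 15 alternatives 0 members passed the threshold, the smallest adjusted p being 0.118 for Ces3a under the replicate block. Ces1d, Ces2a and Ces1c kept their direction in all 15. Of all genes, 1 passed in the fit reported, against 0 with a pseudocount of 5, no filter, a mean of at least 5 FPKM, quantile normalization, median-ratio rescaling or rescaling to a common sum, and 3 with robust fitting. Leaving out 1 library gave 0 to 17, with 17 without WT 1 and 1 without WT 2; the cause was not tested. The median log2 difference of all genes was 0.16 without WT 2 and -0.07 without WT 1, against 0.05. Among the members, 8 were higher and 2 lower in KO tumours without WT 2, and 4 higher and 6 lower without WT 1. With median-ratio rescaling 50.6% of all genes were higher in KO tumours, against 61.4%.

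Deviations from the group means were compared between libraries of the same replicate number. Across genes they correlated at 0.0884 between KO 1 and WT 1 and at -0.241 between KO 2 and WT 2. With 2 WT libraries the WT deviations mirror each other, so these values cannot decide whether the numbers pair the samples. The fit reported takes the samples as unpaired. A replicate block gave 62 genes past the threshold (19 higher and 43 lower in KO tumours), 0 members, and a Ces1g difference of -0.00756. KO 3 has no WT partner and drops out of the block contrast.

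Median-ratio rescaling gave Ces2e -0.0466, and the cause was not tested. With 1 library left out the log2 differences ran from -0.72 to 0.38 for Ces3b, -1.64 to 0.56 for Ces3a, -0.14 to 0.42 for Ces1f, -0.11 to 0.14 for Ces2e, -0.00756 to 0.15 for Ces1g, -0.18 to 0.46 for Ces1e, -0.59 to 0.12 for Ces1b and -0.00516 to 0.19 for the 10-gene sum. Ces1b could not be tested at a mean of at least 5 FPKM. With 2 WT tumours and unknown depth, only differences large against library spread could pass, and leaving out a WT tumour assumes that the lone one varies like the KO tumours.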
